A study of Saccharomyces cerevisiae with 15 samples.

Results

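Sulfometuron methyl (SM) blocks acetolactate synthase, an enzyme shared by isoleucine and valine synthesis, and so starves yeast cells of both amino acids. The comparison described here is of wild-type (WT) Saccharomyces cerevisiae with SM against the same strain without SM, over all 6692 yeast features of the deposited table and 6 of the 15 libraries of the series. The strain is BY4741, a MATa haploid laboratory strain that carries his3Δ1, leu2Δ, met15Δ and ura3Δ in both groups. The 3 libraries with SM came from cells given 1 µg/ml SM for 25 min, and the 3 libraries without SM from cells that did not receive it. Both groups grew at 30 °C in synthetic medium lacking isoleucine and valine to an OD600 of 0.6 to 0.8. The members were chosen by the library labels alone. The labels do not say whether the 3 libraries of a group stand for colonies, cultures or days. Each p-value therefore speaks only of a spread among libraries, and that spread may be technical. For the gene calls it was estimated over all 15 libraries, which include those of 3 deletion strains given SM.

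When an amino acid runs short, uncharged tRNA activates the kinase Gcn2, which phosphorylates the initiation factor eIF2. General translation then slows while translation of GCN4 mRNA rises, and the Gcn4 protein binds short elements upstream of its targets and recruits coactivators. Gcn4 is best known in yeast for switching on enzymes of many amino acid pathways at once, well beyond the amino acid that is missing.

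Each library held 31.1 to 40.0 M yeast fragments, with synthetic ERCC spike-in RNAs added per amount of total RNA. A scaled count is the number of fragments on a gene divided by a factor from the spike-ins, so it is a level per amount of total RNA. Levels are compared between genes only as scaled counts per kilobase (kb). A gene was called when its adjusted p from edgeR's quasi-likelihood test with Benjamini-Hochberg adjustment was below 0.05. Of 6564 genes tested, 3653 (55.7%) were called higher with SM and 497 (7.57%) lower, of which 1940 (29.6%) and 80 (1.22%) changed at least 2-fold. Without library 3 with SM the lower calls number 322. The median log2 fold change of all genes was 0.54. TMM, a scaling that takes most genes as unchanged, moves that median by 0.50 to 0.04, and calls 2708 genes (41.3%) higher and 2445 (37.3%) lower. TMM keeps all 497 lower calls, its 2708 higher calls are all higher by spike-ins too, and no call turned round (0 genes). Rises made up 88.0% of calls by spike-ins and 52.6% with TMM. Below, counts of list members are by spike-ins unless TMM is named, medians of lists are set beside the median of all genes, and a log2 fold change between 0 and 0.50 is higher by spike-ins but not relative to that shift. A value alone in parentheses after a gene is its log2 fold change, SM over no SM. Its SE over the 245 called genes that the naming rule picks ran from 0.14 to 0.48, with a median of 0.19.

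Yeast counts per unit of spike-in were 37.6, 41.2 and 34.0 M in the libraries with SM, against 31.2, 33.0 and 31.5 M in those without SM. The groups did not overlap. The difference was 5.68 M with a 2-sided exact permutation p of 0.1, the smallest that 3 libraries against 3 can give. When spike-in counts were summed instead, the difference was 2.49 M (exact permutation p = 0.4), and the lowest library with SM lay below those without SM.

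The labels were checked against markers of mating type and against the deleted genes. In scaled counts STE2, the a-cell receptor for alpha-factor, had 68227, 76175 and 64875 with SM, against 36295, 42596 and 39047 without SM, which fits a MATa strain. STE3, the receptor of alpha cells, was lower by far per kb, yet it rose, with 3139, 3299 and 2790.5 scaled counts with SM, against 566, 463 and 546 without SM. Alpha-specific genes were not all this low. SAG1, also alpha-specific, was higher per kb than STE3 in every library. Its scaled counts were 7625, 8194.5 and 6724 with SM, against 3816, 3921 and 4070 without SM. LEU2 had 6, 0 and 0 raw counts with SM, against 70, 1 and 6 without SM. MET15 had 4, 1 and 2 with SM, against 82, 2 and 4 without SM, and URA3 had 1, 0 and 0 with SM, against 7, 1 and 2 without SM. The deletions therefore showed in all 6 libraries, with up to 82 reads of a missing gene in library 1 without SM. HIS3, which his3Δ1 removes only in part, had 7475, 7546 and 6914 scaled counts with SM, against 1683, 1473 and 1548 without SM.

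The stretches below surround the Gcn4 element, TGACTCA or its reverse complement TGAGTCA, upstream of genes with some of the largest rises and of HIS4 and LEU4, a pair of pathway genes. They are shown because this element is where Gcn4 is known to bind. Each is read 5′ to 3′ on the strand of the gene, from the R64 assembly, which is the same sequence as sacCer3, with the element in capitals and its distance in bases from the start codon after the strand.
LDS1 (chrI:119732-119761, minus strand, 203 bases): aataaagcacgTGACTCAataatacgacgg
STR3 (chrVII:156383-156412, minus strand, 383 bases): ggttatccggcTGACTCAttctgactcttt
ARG3 (chrX:268474-268503, plus strand, 308 bases): gggtcacgtcgTGACTCAtatgctttcttg
ARO5 (chrVII:288246-288275, plus strand, 249 bases): ttcatatataaTGAGTCAtttgtttctgtc
SNZ1 (chrXIII:458143-458172, plus strand, 248 bases): tcatgacataaTGACTCAgccgacaagggt
ARG1 (chrXV:218855-218884, plus strand, 339 bases): tgattttttagTGACTCAtgtcgcatttgg
RTC2 (chrII:536342-536371, plus strand, 216 bases): ccttgcagcaaTGACTCAaattccattgga
ARG56 (chrV:295176-295205, plus strand, 217 bases): tcttatccgaaTGACTCAgtctacatcaaa
HIS4 (chrIII:68514-68543, minus strand, 193 bases): cccatgcacagTGACTCAcgtttttttatc
LEU4 (chrXIV:426837-426866, minus strand, 95 bases): ttacgtgtaagTGACTCAgttctttcaaag

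The Gcn4 element was found on either strand in 239 of 5977 upstream windows of 500 bases (4.0%). Among genes called higher the share was 5.65%, among genes called higher and at least 2-fold it was 7.84%, and among the 100 largest rises it was 14%. Among genes called lower it was 2.06%, close to the 2.2% among genes that did not pass. Of the 231 tested genes with 1 element, 170 (73.6%) rose, with a median log2 fold change of 0.93. All 7 genes with 2 or more elements rose, with a median of 0.77. An element between 2 divergent genes can count for both. The 7 genes are therefore not 7 separate regions: SNO1 and SNZ1 share the same 2 elements, as do DUO1 and YBP2. Of the 5694 genes without the element 2955 rose (51.9%) and 476 fell, with a median of 0.46, so most genes that rose had no exact match in this window. With TMM 143 of the genes with 1 element rose and 55 fell, and 2098 of those without it rose and 2339 fell. A match is a string of letters and not a shown binding site, and elements that differ by a base were not counted.

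The share that rose differed with the position of the element. Where the nearest element ended 101 to 200 bases before the start codon, 58 of 67 genes rose (86.6%), with a median of 1.25. At 201 to 300 bases 49 of 60 rose (81.7%), with a median of 1.21. Closer to the start codon, at 1 to 100 bases, 22 of 32 rose (68.8%). Farther away the shares were 59.1% of 44 genes at 301 to 400 bases and 62.9% of 35 at 401 to 500. In the plot of fold change by element position the classes at 101 to 300 bases have the highest medians, with wide scatter in every class.

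**Figure D1:**
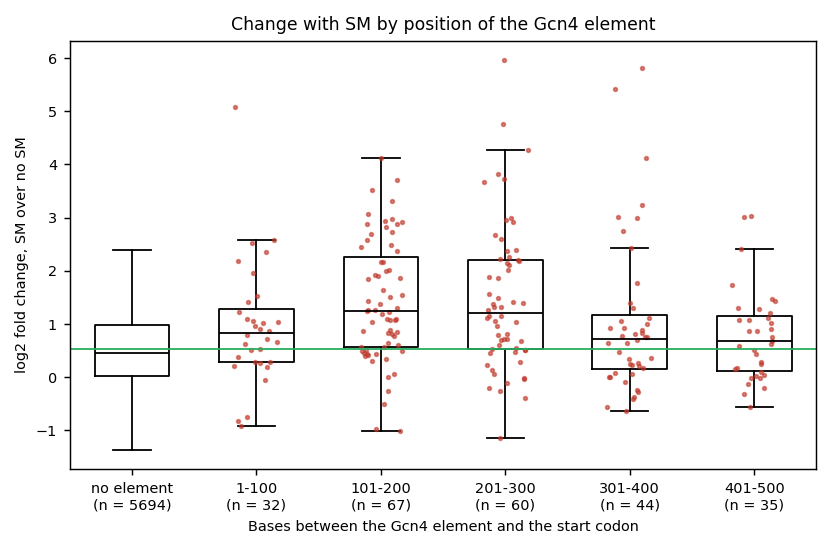
Log2 fold change with SM over without SM (y axis) for genes with no Gcn4 element in 500 bases upstream and for genes grouped by the distance of their nearest element from the start codon in bases (x axis). Boxes show quartiles with the median, whiskers reach 1.5 times the box, red points are single genes with an element, and the green line is the median of all genes (0.54). The highest medians, 1.25 and 1.21, are at 101 to 200 and 201 to 300 bases.

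Where 2 divergent genes share one upstream region of at most 1000 bases, both rose in 25 of 43 pairs with an element (58.1%), against 352 of 1205 pairs without (29.2%). Both rose at least 2-fold in 13 pairs with an element (30.2%), against 7.8% of pairs without. SNO1 and SNZ1 are the pair with the largest joint rise among the 43 with an element. Other motifs were also counted on both strands. Genes with 2 or more copies of the RRPE string AAAATTTT, typical of ribosome biogenesis genes, rose in 18 of 68 cases (26.5%; median 0.15), against 53.8% of 5190 genes without one, and 12.4% of all windows hold it. The E-box CACGTG was in 6.24% of all windows and in 12 of the 77 genes called lower and at least 2-fold (15.6%). Genes with 2 or more copies of the pheromone response string TGAAACA, which 12% of all windows hold, rose in 69.1% of 55 cases. The stress element of Msn2 and Msn4, AGGGG, was in 34.1% of all windows and in 48.1% of the 77 genes called lower and at least 2-fold. The TATA strings TATAAA and TATATA, which can overlap and were in 60.5% and 47.6% of all windows, gave medians of 0.46 to 0.49 whatever their number. Genes with 2 or more GATAAG strings, which the GATA factors Gln3 and Gat1 bind and which 22.8% of all windows hold, rose in 61.6% of 216 cases, against 51.9% of 4582 genes without one.

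GCN4 itself (YEL009C, chromosome V, 138918 to 139763) had 28878, 31289 and 25753 scaled counts with SM, against 19152, 18992 and 18411 without SM. All 3 libraries with SM were above the 3 without. The change was modest (log2 fold change 0.60, SE 0.16, adjusted p = 0.00153, edgeR quasi-likelihood test with Benjamini-Hochberg adjustment), and with TMM it was 0.10 and did not pass. In the sensing arm, from Gcn2 and its partners to the phosphatases that oppose it, 3 of 10 rose and 1 fell (1 and 5 with TMM), against 55.7% and 7.57% of all genes. YIH1, which restrains Gcn2 by competing for Gcn1, had 979, 998 and 1010.2 scaled counts with SM, against 536, 468 and 605 without SM (0.89 log2), and GCN2 had 9384, 9810.1 and 6807 with SM, against 5759, 6395 and 5250.4 without SM (0.58). The GCN2 groups did not overlap, but the call was lost without library 3 without SM (0.51) and without library 1 (0.52) or library 2 with SM (0.48), and with TMM it did not pass. Among subunits of eIF2 and its exchange factor eIF2B, 1 of 9 rose and 1 fell (1 and 7 with TMM). GCD7, of eIF2B, had 7528, 8351 and 7059 with SM, against 4371, 4424 and 4663 without SM (0.77). SUI3, the beta subunit of eIF2, had 4278, 4727 and 3825 with SM, against 6100.3, 5694 and 5722 without SM (−0.45), and leaving out any library but library 2 with SM ended its call. None of these 19 upstream windows held a Gcn4 element, nor did those of the 8 genes for Gcn4 turnover. The share over all windows was 4.0%, so sets this small can lack the element without differing from other genes.

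In that turnover list 4 of 8 rose and 0 fell (3 and 3 with TMM). PCL5, a cyclin that directs the kinase Pho85 to mark Gcn4 for destruction, had 30651, 32474 and 28449.6 scaled counts with SM, against 6077, 5494 and 5455 without SM. Every library with SM was at least 4 times the highest without, and the change was 2.43 ± 0.17 log2 (SE). SSN8, the cyclin of the Mediator kinase that also marks Gcn4, had 10652, 11600.5 and 9168 scaled counts with SM, against 3315, 3419 and 3504 without SM (1.62), and PHO85 rose by 0.81.

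The largest rises and falls named here are among called genes with a standard symbol, a mean of at least 10 counts per M and groups that do not overlap. Of all called features 17 rose by more than LDS1, each with a mean below 10 counts per M. LDS1, a lipid droplet protein of sporulating cells (YAL018C, chromosome I, 118564 to 119541), led the rises within these limits, with 979, 1023 and 830 scaled counts with SM, against 17.9, 17.9 and 9.55 without SM (log2 fold change 5.96, SE 0.27, adjusted p = 9.24e-21). Its levels without SM rest on few fragments. STR3, which makes homocysteine from cystathionine (YGL184C, chromosome VII, 154615 to 156012), had 12588, 13368 and 11397 with SM, against 233, 227 and 204 without SM (log2 fold change 5.81, SE 0.25, adjusted p = 3.37e-21). ARG3, ornithine carbamoyltransferase (YJL088W, chromosome X, 268799 to 269815), had 22026, 22768 and 20210.3 with SM, against 579, 437 and 495 without SM (5.43). ARO10, the decarboxylase that opens the Ehrlich pathway of amino acid breakdown to fusel alcohols (YDR380W, chromosome IV, 1234218 to 1236125), had 17749, 20463 and 18901 with SM, against 478, 544 and 557 without SM (5.18). In all 4 genes the groups were far apart and the spread within a group was small beside the difference.

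DPA10 (YLR307C-A) and ARO5 (YGL117W) also were among the 10 largest rises within the same limits, at 4.89 and 4.76. ARO5 was the more abundant, with 22051, 24789 and 21932 with SM, against 917, 823 and 798 without SM. DTR1, a transporter of the spore wall precursor dityrosine, had 1115, 1295 and 1126 with SM, against 57.7, 49.1 and 43.8 without SM (4.55). RTA1, a membrane protein linked to sterol analogue resistance, had 1368, 1554 and 1581 with SM, against 49.2, 63.2 and 81.2 without SM (4.54). SNZ1 and SNO1, the synthase and amidotransferase of vitamin B6 synthesis, rose together by 4.28 and 4.13. SNZ1 had 5553, 5457 and 5079 with SM, against 276, 269.9 and 282 without SM, and SNO1 had 1246, 1288 and 1231 with SM, against 58.5, 72.7 and 83.5 without SM. The plot of the largest changes shows every library with SM apart from every library without SM for these 10 genes, which the choice of genes without overlap fixes.

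**Figure D2:**
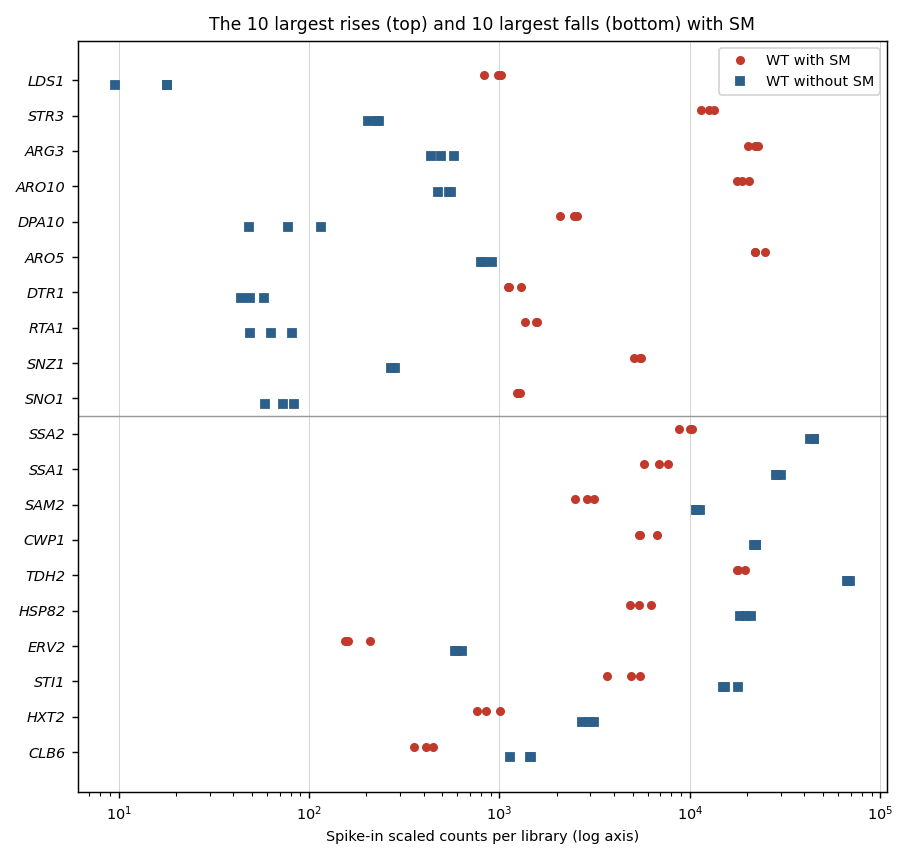
Spike-in scaled counts per library (x axis, log scale) for the 10 largest rises (top) and 10 largest falls (bottom) with SM, among called genes with a symbol, a mean of at least 10 counts per M and no overlap between groups. Red circles are the 3 WT libraries with SM and blue squares the 3 without. LDS1 lies between 830 and 1023 with SM and below 20 without SM, and SSA2 is at most 10310 with SM and at least 42544 without SM.

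The largest falls were smaller than the largest rises and were led by chaperones. SSA2 (YLL024C, chromosome XII, 95566 to 97485), a cytosolic Hsp70, had 10026, 10310.2 and 8724 scaled counts with SM, against 42544, 44986 and 44639 without SM (log2 fold change −2.19, SE 0.19, adjusted p = 7.35e-13). Its near twin SSA1 (YAL005C, chromosome I, 139503 to 141431) had 6923, 7682 and 5741 with SM, against 30184, 28566 and 28283 without SM (−2.10). How reads shared by both copies were counted is not given, so their separate values are uncertain. HSP82, one of the Hsp90 pair and under the same limit, had 5415, 6236 and 4834 with SM, against 19653, 21001 and 18412 without SM (−1.84), and STI1, the cochaperone that links Hsp70 to Hsp90, had 4891, 5479.9 and 3686 with SM, against 15323, 17858 and 14926 without SM (−1.77).

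SAM2, which makes S-adenosylmethionine, had 2878, 3155 and 2508 scaled counts with SM, against 10852, 10746 and 11279 without SM (−1.94), and SAH1, which clears its product S-adenosylhomocysteine, had 15908, 17188 and 15251 with SM, against 48682, 47757 and 46302 without SM (−1.56). CWP1, a cell wall mannoprotein, had 5382, 6715 and 5478 with SM, against 22251, 22263 and 21800.3 without SM (−1.92). TDH2, a glyceraldehyde-3-phosphate dehydrogenase, had 17898, 19419 and 17791 with SM, against 66990.5, 69450.3 and 67326 without SM (−1.89), with the same limit as for SSA1 because of its close paralogues. HXT2, a glucose carrier of high affinity, had 765, 1008 and 852 with SM, against 3145, 2723 and 2963 without SM (−1.75). CLB6, an S-phase cyclin, had 411, 445 and 357 with SM, against 1129.9, 1441 and 1466 without SM (−1.73), and ERV2, an oxidase of the endoplasmic reticulum, had 159.6, 209 and 154 with SM, against 601, 584 and 635 without SM (−1.80). In none of these 7 genes did a library with SM reach one without SM, which the rule for the largest falls fixes for all but SAH1.

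By level rather than fold, the 10 largest gains shared 0 genes with the 10 largest rises above, and the 10 largest losses shared CWP1 and TDH2 with the 10 largest falls. The 10 largest gains of scaled counts per kb held SPO24, YDR133C, YOR302W, ATG41, ARG1, MFA2, PCL5, NCE103, HOR7 and ARG4, and together they took 0.832% ± 0.040 of yeast counts with SM, against 0.229% ± 0.011 without SM (SD, n = 3). SPO24 had 46053, 48216 and 44894 scaled counts with SM, against 12141, 12238 and 10887 without SM (1.98). YOR302W, the upstream open reading frame of CPA1 whose peptide stalls ribosomes when arginine is plentiful, had 5851, 5703 and 5225 with SM, against 847, 843 and 809 without SM (2.75). NCE103, carbonic anhydrase, had 28774, 29992 and 25791 with SM, against 6389.8, 5104 and 6599 without SM (2.22). MFA2, an a-factor gene, and HOR7 gained in level although they changed by only 0.59 and 0.60 log2, and neither passed with TMM. The 10 largest losses were CWP1, TDH2, ADH1, PDC1, FBA1, SRL1, YOR248W, SAH1, CDC19 and YDR154C, with 1.08% ± 0.056 of counts with SM, against 2.15% ± 0.036 without SM. PDC1, pyruvate decarboxylase, had 58728, 63016 and 62039.9 with SM, against 109843, 123078 and 114347 without SM (−0.92), and CDC19, pyruvate kinase, had 123466, 133752 and 119339 with SM, against 153200, 169052 and 157441 without SM (−0.35). Leaving out any of 4 libraries (library 2 or 3 without SM, library 1 or 3 with SM) ended the CDC19 call, at −0.31 to −0.36, and SRL1 and YOR248W also lost theirs without library 2 without SM or library 3 with SM.

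The lists named here number 59, with 1025 distinct tested genes, and each count is to be read against the 55.7% of all genes that rose and the 7.57% that fell. All 10 arginine synthesis genes rose, with a median of 3.01. The list took 0.955% ± 0.027 of yeast counts with SM, against 0.113% ± 0.0064 without SM (SD, n = 3). ARG1 had 58261, 61547 and 56125 scaled counts with SM, against 3610.4, 3016 and 3434 without SM (4.13), and ARG56, which encodes 2 consecutive enzymes, had 49879, 52586 and 45783 with SM, against 4081, 3601 and 3956 without SM (3.67). The Gcn4 element stood upstream of 9 of the 10. The breakdown side did not share that direction, as 3 of 7 rose and 2 fell (3 and 4 with TMM). CAR2, ornithine transaminase, had 1679, 2127 and 1786 with SM, against 5303, 4652 and 4467 without SM (−1.37), and PRO3, the last step to proline, had 3203, 3374 and 3291 with SM, against 6776, 6354 and 6659 without SM (−1.0). DUR3, a carrier of urea and polyamines, rose by 2.41, and PUT1, proline oxidase, by 1.56.

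All 6 histidine genes rose (median 1.79). HIS4 had 38391, 41869.5 and 37669.6 scaled counts with SM, against 5095, 4982 and 5415 without SM (2.93), HIS5 rose by 2.69, and HIS7 by 2.15. All 9 lysine genes rose (median 1.52, 7 with TMM), among them LYS20, homocitrate synthase, with 11878, 10562 and 9442 with SM, against 1839, 1659 and 1853 without SM (2.57), and LYS2, aminoadipate reductase, with 58558, 60457 and 51660.1 with SM, against 13633, 14317 and 14043 without SM (2.02). The pathway that SM itself blocks had a lower median than the pathways above. In isoleucine, valine and leucine synthesis 6 of 11 rose and 1 fell (3 and 3 with TMM), and the median of 0.43 lay below that of all genes although 7 of the 11 upstream windows held a Gcn4 element. ILV2, the SM target, had 31256, 32569 and 27603 with SM, against 14056, 15058 and 14586 without SM (1.07). The first leucine enzymes rose, LEU4 by 1.41 and LEU9 by 1.5, while LEU1, isopropylmalate isomerase, had 9651, 10418 and 9264 with SM, against 19619.7, 22651 and 22310.2 without SM (−1.14).

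Of aromatic synthesis genes 12 of 13 rose and 0 fell (10 and 1 with TMM; median 1.09). ARO9, an aromatic transaminase that works in breakdown, had 24971, 30167 and 27908 scaled counts with SM, against 2008, 1827 and 1946 without SM (3.84), and TRP3, TRP4 and ARO3 rose by 2.0, 1.88 and 1.77. In the Ehrlich list 6 of 8 rose and 0 fell (5 and 1 with TMM). Besides ARO10 and ARO9 these included PDC6 (2.44) and AAD14 (1.80), a minor decarboxylase and a putative aryl alcohol dehydrogenase. Sulfate assimilation and methionine genes split: 19 of 25 rose and 4 fell (17 and 6 with TMM). SUL1, a sulfate carrier, had 301, 315 and 215 with SM, against 36.7, 39.6 and 26.3 without SM (3.02), STR2, cystathionine gamma-synthase, had 10732, 11154 and 10050 with SM, against 1499.7, 1505 and 1537 without SM (2.81), and MET16, of sulfate reduction, rose by 2.44. The 4 that fell included SAM2 and SAH1.

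Aspartate kinase HOM3, at the head of threonine synthesis, had 47313, 49431 and 42757 scaled counts with SM, against 9681, 10291 and 10299 without SM (2.20), yet in its list 4 of 8 rose and 0 fell (3 and 4 with TMM). In the serine and glycine list 6 of 12 rose and 1 fell (6 and 5 with TMM). CHA1, the serine and threonine deaminase, had 15089, 15401 and 13769 with SM, against 3406, 3026 and 3344 without SM (2.18), and SER3, the first serine enzyme, had 13774, 15286 and 12014 with SM, against 3919, 3742 and 3774 without SM (1.84). Among genes of glutamate, glutamine, asparagine and proline 8 of 12 rose and 2 fell (3 and 4 with TMM). ASN1, asparagine synthetase, had 50581, 54791 and 46244 with SM, against 13569, 14391 and 13869 without SM (1.86). Glutamate dehydrogenases did not share a direction. The synthetic GDH1 had 1969, 2300.3 and 1916 with SM, against 6597, 6734 and 6919.6 without SM (−1.71). The degradative GDH2 had 12022, 13968 and 10806 with SM, against 5651, 5241 and 5111 without SM (1.20). GDH3, another synthetic form, had a log2 fold change of 0.706, opposite in sign to that of GDH1.

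Of 26 transcription factors of amino acid and nitrogen genes 22 rose and 0 fell (19 and 4 with TMM), with a median of 1.10, 0.56 above the median of all genes. UGA3, the activator of GABA use, had 21442, 22984 and 19496 scaled counts with SM, against 2066, 2130 and 2217 without SM (3.32). MET28, a sulfur pathway factor, had 2285, 2525 and 2225 with SM, against 409, 399 and 413 without SM (2.53), and ARG80, an arginine pathway regulator, had 2238, 2489 and 2095 with SM, against 490, 558 and 465 without SM (2.17). DAL80, a GATA repressor, was low, with 169, 144 and 103 with SM, against 29.6, 19.8 and 21.5 without SM (2.54). The 5 factors with a Gcn4 element had a median of 2.02, and the 21 without it 0.89. Lists did not all share this order. Histidine synthesis did, with medians of 2.42 with the element and 0.83 without. Aromatic synthesis (1.07 with and 1.25 without) and isoleucine, valine and leucine synthesis (0.43 and 0.48) had the reverse order.

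Carriers at the cell surface rose in part: of amino acid permeases 14 of 19 rose and 0 fell (11 and 4 with TMM). DIP5, for glutamate and aspartate, had 36283, 39757 and 33359 scaled counts with SM, against 10955, 9621 and 9837 without SM (1.85), and ALP1, a basic amino acid permease, had 2499, 2928 and 2338 with SM, against 477, 484 and 422 without SM (2.49). Among vacuolar amino acid carriers 8 of 12 rose and 0 fell (7 and 4 with TMM), with RTC2 at 13201, 14482 and 12203 with SM, against 1181, 845 and 995 without SM (3.72) and VBA2 at 7133, 7731 and 6996 with SM, against 1667, 1568 and 1762 without SM (2.13). VBA3 was barely detected, with 37.8, 44 and 37.1 with SM, against 4.68, 1.89 and 1.59 without SM. Mitochondrial carriers gave 14 rises and 2 falls in 20 (10 and 6 with TMM). ORT1, which exports ornithine for arginine synthesis, had 3690.3, 4103 and 3399 with SM, against 497, 432 and 470.2 without SM (3.0), ODC2, an oxodicarboxylate carrier, had 8645, 9801 and 8223 with SM, against 1703, 1592 and 1863 without SM (2.37), and CRC1, the carnitine carrier, had 1557, 1668 and 1524 with SM, against 129, 97.2 and 119 without SM (3.78). The 6 mitochondrial carriers with a Gcn4 element had a median of 1.84, and the 14 without it 0.56.

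**Figure D3:**
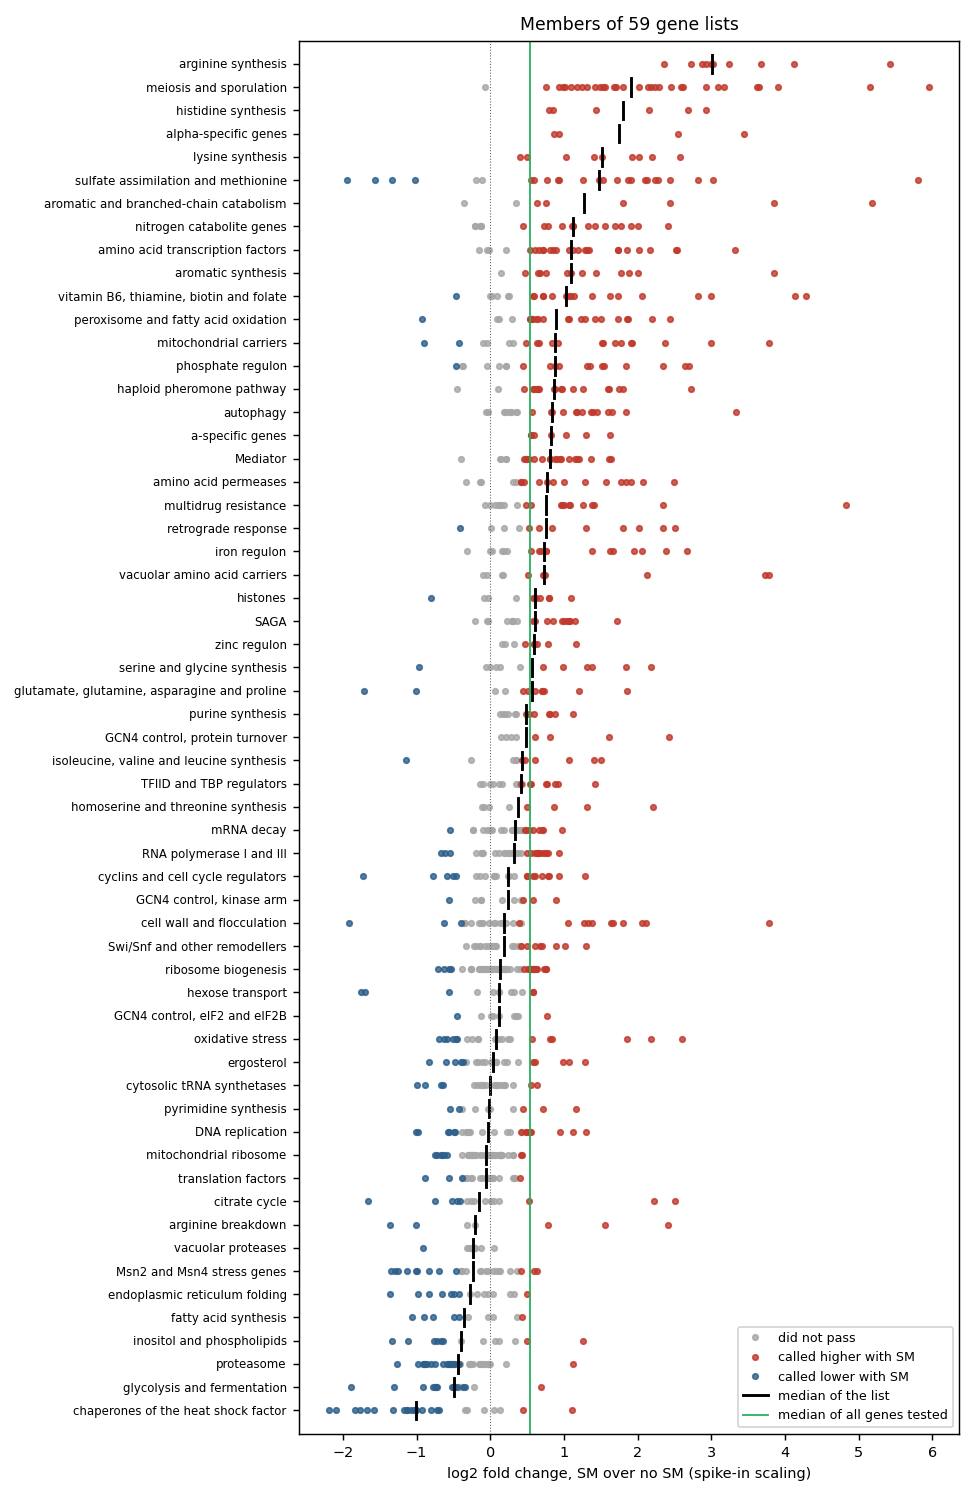
Log2 fold change with SM over without SM by spike-in scaling (x axis) of every tested member of 59 gene lists (rows, ordered by median). Red points were called higher with SM, blue points lower and grey points did not pass; black bars are list medians and the green line is the median of all genes (0.54). Arginine synthesis leads with a median of 3.01 and the chaperones of the heat shock factor come last with −1.01.

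Genes for cofactors and for other nitrogen sources rose in part. Among genes of vitamin B6, thiamine, biotin and folate 17 of 23 rose and 1 fell (15 and 5 with TMM), with BIO3 and BIO5, of biotin synthesis and precursor uptake, at 3.0 and 2.82. Of 20 nitrogen catabolite genes 15 rose and 0 fell (13 and 5 with TMM). DAL7, a malate synthase gene of allantoin use, had 4245, 5118 and 4150.2 scaled counts with SM, against 1247, 1105 and 1228 without SM (1.92), and UGA4, the GABA carrier, had 711, 808 and 785 with SM, against 229, 209.5 and 233 without SM (1.78). Purine synthesis gave 7 rises and 0 falls in 13, the largest for ADE8 (1.12), and with TMM 4 rose and 5 fell. Pyrimidine synthesis gave 3 rises and 2 falls in 10 (2 and 7 with TMM), with URA10 at 1.16 and URA4 at −0.55.

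Autophagy, the delivery of cytoplasm to the vacuole for breakdown, gave 14 rises and 0 falls in 23 genes (13 and 6 with TMM), with a median of 0.83. ATG41 had 24694, 24214 and 23742 scaled counts with SM, against 2538, 2247 and 2387 without SM (log2 fold change 3.34, SE 0.18, adjusted p = 9.29e-19), the largest of the list. ATG1, the kinase that starts autophagy, had 8531, 8799 and 6563 with SM, against 2534, 2733 and 2371 without SM (1.65), ATG29, of the same starting complex, rose by 1.84, and ATG5 by 1.6. Among vacuolar proteases, which digest the cargo, 0 of 9 rose and 1 fell, and with TMM all 9 were lower. PBI2, an inhibitor of vacuolar proteinase B, had 1647, 2004 and 1429.6 with SM, against 3378, 3166 and 2997 without SM (−0.91).

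In the proteasome list 18 of 33 genes were lower and 1 higher (32 and 1 with TMM). RPT1, an ATPase of the base, had 1999.5, 2051 and 1661 scaled counts with SM, against 4463, 4706 and 4528 without SM (−1.26), and the core subunits PRE7 and PRE4 fell by 0.98 and 0.92. The 1 gene that rose was RPN4, the activator of proteasome genes, with 9354, 10100.3 and 7509 with SM, against 4128, 4207 and 4089.5 without SM (1.12). Chaperones under the heat shock factor, most of them cytosolic and some mitochondrial, gave 18 falls and 2 rises in 25 genes (23 and 1 with TMM), and the list took 0.468% ± 0.011 of yeast counts with SM, against 1.2% ± 0.026 without SM. In the endoplasmic reticulum 7 of 15 fell and 1 rose (14 and 0 with TMM). KAR2, its Hsp70, had 11768, 12827 and 10941 with SM, against 29082, 30771 and 31093 without SM (−1.36), and PDI1, protein disulfide isomerase, had 36973, 41743 and 35564 with SM, against 57529.5, 63419 and 58477 without SM (−0.65).

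**Figure D4:**
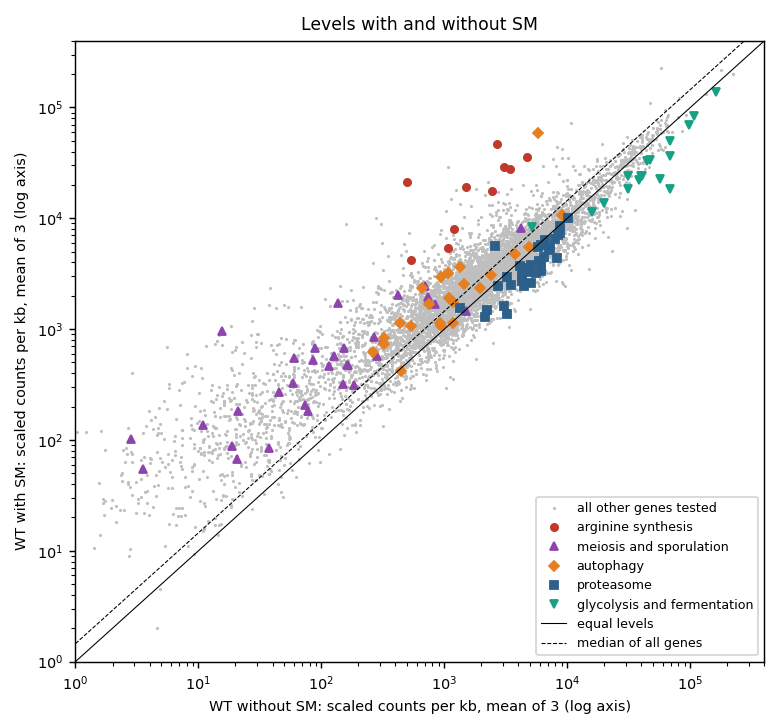
Mean scaled counts per kb (log scales) in WT with SM (y axis) against WT without SM (x axis), 1 point per tested gene. The solid line marks equal levels and the dashed line the median of all genes. The 10 arginine genes (red) lie far above both lines, meiotic genes (purple) are mostly low and above the lines, and proteasome (blue) and glycolytic (green) genes lie mostly on or below the solid line.

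Lists of the translation machinery had medians near 0, below the median of all genes. Of 20 cytosolic tRNA synthetases 4 fell and 2 rose (18 and 1 with TMM), with a median of −0.0077. SES1, for serine, had 5510.3, 5762 and 4766 scaled counts with SM, against 10549.6, 11038 and 10276 without SM (−0.99), and GRS1, for glycine, had 10733, 11777 and 10065 with SM, against 19893, 20279 and 20243 without SM (−0.89). Among 22 translation factors 3 fell and 1 rose (20 and 0 with TMM). TIF11, initiation factor eIF1A, had 2307, 2571 and 2166 with SM, against 3983, 4348 and 4746 without SM (−0.89), and TIF4632, an eIF4G, had 5364, 5715 and 4164 with SM, against 7043, 8414 and 6971 without SM (−0.56). The call for TIF4632 was lost without library 2 without SM (−0.46) or library 3 with SM (−0.43). Nuclear genes of the mitochondrial ribosome gave 6 falls and 2 rises in 42 (39 and 0 with TMM), led by MRP2 (−0.75) and MRPL27 (−0.72).

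Ribosome biogenesis genes gave 15 rises and 4 falls in 53, with a median of 0.13, and 3 rises and 36 falls with TMM, so their direction depends on the scaling. MAK5, an RNA helicase of the large subunit, had 5792, 5818 and 4489.9 scaled counts with SM, against 2893, 3613 and 3037 without SM (0.75), and RLP7, another assembly factor, had 737, 728 and 541 with SM, against 1153, 1070.2 and 1065 without SM (−0.71). RNA polymerase I and III genes gave 11 rises and 3 falls in 31 (4 and 17 with TMM), with TFC7 and TFC8, of the polymerase III factor TFIIIC, at 0.94 and 0.78. In the mRNA decay list 8 of 25 rose and 1 fell (4 and 13 with TMM). SKI7, which links the exosome to ribosomes, had 6268, 7115 and 5646 with SM, against 3103, 3321 and 3293 without SM (0.97), and NAM7, the Upf1 helicase of nonsense-mediated decay, rose by 0.70.

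Among lists of coactivators that Gcn4 is known to recruit, only Mediator rose clearly more often than the 55.7% of all genes. SAGA was near that share, and TFIID with the TBP regulators and the remodellers were below it. Mediator, which bridges activators and RNA polymerase II, gave 19 rises and 0 falls in 24 (14 and 5 with TMM), with a median of 0.81. CSE2 had 2632, 2921 and 2316 scaled counts with SM, against 919, 747 and 859 without SM (1.64), NUT2 rose by 1.37 and MED8 by 1.20, all subunits of the middle or head. Of SAGA genes 11 of 19 rose and 0 fell (9 and 6 with TMM), with SGF11 at 517, 542 and 602 with SM, against 165, 147 and 193 without SM (1.71) and its partner in the deubiquitinase module, UBP8, at 1.08. In TFIID and TBP regulators 8 of 17 rose and 0 fell (5 and 7 with TMM), TAF3 by 1.43 and TFIIB (SUA7) by 0.92. Among remodellers 8 of 24 rose and 0 fell (5 and 14 with TMM), with the Swi/Snf subunits SNF11 and SNF6 at 1.30 and 1.01. The medians of SAGA, TFIID and the remodellers differed from that of all genes by 0.065, −0.12 and −0.36.

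Most genes of glucose fermentation fell. In glycolysis and fermentation 14 of 17 fell and 1 rose (16 and 1 with TMM), and the list took 2.17% ± 0.13 of yeast counts with SM, against 3.76% ± 0.027 without SM (SD, n = 3). ADH1, alcohol dehydrogenase, had 23236, 25813 and 22626 scaled counts with SM, against 59665, 63713 and 54408 without SM (−1.31), PGI1 fell by 0.77 and FBA1 by 0.49. In the list of hexose carriers and glucose sensors 2 of 12 rose and 3 fell (0 and 8 with TMM). HXT2 and HXT4 were lower (−1.75 and −1.70), while HXT1, of low affinity, had 25902, 27499 and 25946 with SM, against 15989, 18997 and 17921 without SM (0.58) and did not pass with TMM. General stress genes of Msn2 and Msn4 gave 9 falls and 3 rises in 26 (21 and 0 with TMM). HXK1, a hexokinase, had 13917, 17557 and 14397 with SM, against 40635, 38387 and 37414 without SM (−1.34), and GRE3, aldose reductase, had 5197, 6158 and 4833 with SM, against 13389.8, 12587 and 12554 without SM (−1.25).

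Citrate cycle genes were split. Some of them belong to the retrograde response, by which yeast cells with impaired mitochondria raise alpha-ketoglutarate supply through the factors Rtg1 and Rtg3. In the cycle list 3 of 16 rose and 5 fell (2 and 13 with TMM). CIT2, the peroxisomal citrate synthase, had 19034, 19255 and 16036 scaled counts with SM, against 3477, 3132 and 2952 without SM (log2 fold change 2.51, SE 0.18, adjusted p = 1.13e-14). MDH1, mitochondrial malate dehydrogenase, had 3134, 4119 and 2987 with SM, against 11626, 10644 and 10227 without SM (−1.67), and LSC2, of succinyl-CoA ligase, fell by 0.75. Of 12 retrograde genes 8 rose and 1 fell (6 and 3 with TMM), among them RTG3 with 8373, 8894 and 6349 with SM, against 1787, 2101 and 1952 without SM (2.02) and DLD3 with 26339.7, 28393 and 24546 with SM, against 7004, 7784 and 8047 without SM (1.80).

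Lipid lists moved apart. Peroxisome and fatty acid oxidation genes gave 18 rises and 1 fall in 22 (12 and 3 with TMM). PEX21, which helps import matrix enzymes, had 2894, 3077 and 2638 scaled counts with SM, against 549, 487 and 551 without SM (2.44), and PXA1, a subunit of the transporter of long fatty acids, had 3325, 3761 and 2997 with SM, against 965, 875 and 922 without SM (1.87). Fatty acid synthesis gave 5 falls and 1 rise in 10 (8 and 0 with TMM), with FAS1 at 73136, 82113 and 69708 with SM, against 135109, 145261 and 140288 without SM (−0.90) and ACC1 at 51137, 55644 and 44602 with SM, against 83829, 92035 and 84594 without SM (−0.78). In inositol and phospholipid genes 6 of 13 fell and 2 rose (10 and 1 with TMM). INO1, inositol phosphate synthase, had 4219, 4842 and 3719.9 with SM, against 11342, 9619.6 and 11344 without SM (−1.34), CDS1, CDP-diacylglycerol synthase, had 5229, 5823 and 4834 with SM, against 11692, 11423 and 11276 without SM (−1.11), and EKI1, ethanolamine kinase, rose by 1.26. Ergosterol genes gave 5 rises and 5 falls in 22 (3 and 16 with TMM), with the activators ECM22 and UPC2 higher by 1.29 and 1.07 and ERG20, farnesyl pyrophosphate synthase, at −0.83.

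Cell cycle lists were mixed. Of cyclins and regulators 9 of 23 rose and 5 fell (4 and 14 with TMM). CDC20, the activator of the anaphase-promoting complex, had 7301, 7683 and 5358 scaled counts with SM, against 2694, 3023 and 2632 without SM (1.28), whereas the S-phase cyclin CLB6 had the largest fall of the list. In DNA replication 8 of 24 rose and 6 fell (3 and 15 with TMM). RNR1, the main large subunit of ribonucleotide reductase, had 11379, 12185 and 10567 with SM, against 19027, 24703 and 23890.4 without SM (−0.99), CDC21, thymidylate synthase, had 339, 356 and 266 with SM, against 542, 704 and 683 without SM (−1.0), and RNR3, the reductase's damage-inducible subunit, had 1733, 1799 and 1492 with SM, against 702, 676 and 666 without SM (1.30). Among histones 7 of 11 rose and 1 fell (4 and 4 with TMM), HTA1 by 1.10, and the linker histone HHO1 was lower at −0.80.

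Nutrient uptake genes of other pathways rose in part. In the iron regulon 12 of 18 rose and 0 fell (10 and 6 with TMM). ENB1, an enterobactin carrier whose upstream window has a Gcn4 element, had 11344, 12766 and 11792 scaled counts with SM, against 2006, 1709 and 1932 without SM (2.67), and the ferric reductase FRE2 had 2899, 3103 and 2531 with SM, against 525, 568 and 539 without SM (2.39). Of phosphate genes 12 of 19 rose and 1 fell (11 and 6 with TMM), but from low levels: PHO84, the main phosphate carrier, had 559.8, 510 and 513 with SM, against 105, 84 and 123 without SM (2.34), and PHO89 had 131, 146 and 100.5 with SM, against 26.5, 11.3 and 19.1 without SM (2.70). Zinc genes gave 6 rises and 0 falls in 9 (2 and 2 with TMM), with ZRT2 at 1.17. Among multidrug resistance genes 12 of 20 rose and 0 fell (10 and 7 with TMM), and AZR1, an efflux carrier, had 231, 259 and 201 with SM, against 11.7, 5.66 and 6.37 without SM (4.82). In oxidative stress 6 rose and 6 fell of 22 (4 and 16 with TMM). ATR1, an efflux carrier with a Gcn4 element upstream, had 6513, 7009 and 5841 with SM, against 1017, 1075 and 1108 without SM (2.60), and CTA1, peroxisomal catalase, rose by 2.18. Cell wall genes gave 11 rises and 3 falls in 28 (10 and 14 with TMM), with DAN1 from near 0 (206, 204 and 191 with SM, against 19.5, 13.2 and 10.3 without SM) and FLO9, a flocculin with close paralogues, at 2.12.

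Mating genes of both types rose. All 7 a-specific genes were higher (median 0.83; 4 with TMM), ASG7 with 3122, 4059.9 and 3262 scaled counts with SM, against 1120.5, 1137 and 1144 without SM (1.62) and AGA2, a subunit of agglutinin, with 11790.4, 13586 and 11765 with SM, against 4534, 5481 and 5152 without SM (1.29). In the shared pheromone pathway 18 of 20 rose and 0 fell (11 and 2 with TMM). PRM1, a membrane fusion protein, had 3159, 4007 and 3279 with SM, against 481, 554 and 539 without SM (2.73), and FUS1, of cell fusion, had 7746, 8513 and 6608 with SM, against 2172, 2517 and 2101 without SM (1.75). All 4 alpha-specific genes also were called higher (3 with TMM), SAG1 by 0.93 and MF(ALPHA)2 from near 0, with 176, 207 and 167 with SM, against 14.1, 20.8 and 15.9 without SM. Of 32 genes of meiosis and sporulation, which haploids keep nearly off, 31 rose and 0 fell (31 and 1 with TMM), with a median of 1.91. SPO21, a spindle pole protein of meiosis II, had 2933, 3676 and 2832 with SM, against 261, 252 and 239 without SM (3.65). SPS2, of the spore wall, had 163, 178 and 118 with SM, against 3.9, 5.66 and 3.18 without SM, and IME4, an mRNA methyltransferase, had 108, 112 and 73.2 with SM, against 3.9, 6.61 and 8.75 without SM. These are few fragments in libraries of more than 31 M.

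The meiotic rises and some of the alpha-specific ones stand beside a general feature of the low end of the table. The 5th percentile of scaled counts per kb over features of at least 300 bases was 110.7, 121.3 and 98.9 with SM, against 19.9, 18 and 18 without SM. At the 50th percentile the libraries with SM had 2374, 2599 and 2065, against 1511, 1592 and 1552 without SM, and at the 99th percentile the 2 means differed by a ratio of 1.07. Genes were also classed by mean level over all 15 libraries of the series, the deletion strains included. In the lowest 20% of genes by this level 998 of 1313 rose (76.0%), with a median log2 fold change of 1.52, and 41 fell (852 and 179 with TMM). In the highest 20% 490 rose (37.3%) and 175 fell (13.3%), with a median of 0.22, whereas with TMM 306 rose and 764 fell, with a median of −0.28.

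Features without a RefSeq gene rose in 516 of 603 cases (85.6%) and fell in 10 (459 and 37 with TMM), with a median of 2.03. Of the 450 of them that overlap a feature on the other strand, 401 rose and 2 fell, with a median of 2.33, or 1.83 with TMM. Among 439 such features with a tested RefSeq partner, the median ratio of feature to partner, both per kb, was 10.5%, 10.6% and 10.6% with SM, against 1.92%, 1.67% and 1.93% without SM. The features rose at much the same rate whichever way the partner moved: 192 of 213 features rose where the partner rose, and 42 of 47 rose where the partner fell. The 9 libraries of the 3 deletion strains, all given SM, had ratios of 6.45% to 10.5%. The library kit keeps the strand, but the counted strand is not stated in the labels or processing notes. Ratios of single features differed widely. YAL037C-B, opposite CDC19, had 0.033%, 0.034% and 0.017% with SM, against 0.038%, 0.028% and 0.012% without SM, while 393 of the 439 features were called higher. SM, the transcription of the other strand and the strand purity of the libraries were not told apart here, as every library with a high ratio was given SM. The part of this feature in the rises of low-level genes, the meiotic and alpha-specific lists among them, was not tested.

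**Figure D5:**
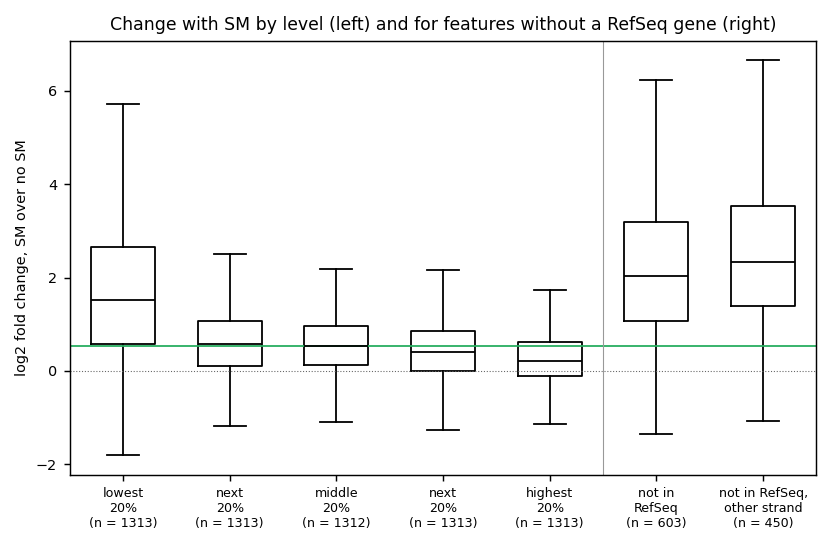
Log2 fold change with SM over without SM (y axis) for tested genes in 5 classes by mean scaled counts per kb over all 15 libraries of the series, and for features not in RefSeq, all of them and those overlapping a feature on the other strand. Boxes show quartiles with the median, whiskers reach 1.5 times the box, and the green line is the median of all genes (0.54). Medians go down with level, 1.52 in the lowest and 0.22 in the highest 20%, and are 2.03 and 2.33 in the features not in RefSeq.

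Place on the chromosome also went with the change. Of 280 genes within 20 kb of a chromosome end 209 rose (74.6%) and 8 fell (184 and 35 with TMM), with a median of 1.5. Level was not held equal here, and in the lowest 20% of genes by level 76.0% rose, with a median of 1.52. Of the 23 genes tested on the mitochondrial chromosome 0 rose and 1 fell (0 and 12 with TMM). Their median was 0.21 by spike-ins and −0.29 with TMM.

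In all, the 3653 genes called higher took 42.8% ± 0.083 of yeast counts with SM, against 26.2% ± 0.29 without SM (SD, n = 3). The 497 called lower took 10.03% ± 0.093 with SM, against 19.4% ± 0.064 without SM. These shares describe the genes that the test chose. Of the 100 most abundant features, 27 were called lower, against 7.57% of all genes and 13.3% of the highest class by level. How many of the 100 were called higher is not reported here. The 27 took 3.17% ± 0.12 of counts with SM, against 5.94% ± 0.10 without SM. The direction of that difference is fixed by choosing genes called lower. All 100 together took 15.7% ± 0.49 of counts with SM, against 19.7% ± 0.33 without SM.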

How the data were processed

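RNA was sequenced with a stranded, rRNA-depleted, paired-end kit after 1.2 µg of total RNA received 2.4 µl of ERCC spike-in mix diluted 1:100, per the labels' protocols. The authors deposited a table of raw counts per gene; per the submitters' processing notes, STAR, SAMtools, DESeq2 and the sacCer3 genome were used, without versions. The counted strand and the treatment of reads shared by copies are not given in the sources, so close paralogues, overlapping genes and features on opposite strands are uncertain. Every feature length is a multiple of 3, so lengths are coding lengths. Of 6692 features 6008 match RefSeq of the R64 assembly, 6000 at the same coordinates, and the other 684 hold 0.721% of yeast counts.

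Counts were fitted with edgeR 4.0.16 (R 4.3.3, limma 3.58.1), quasi-likelihood test, all 15 libraries in 5 groups, filterByExpr, size factors as medians of ratios over the 74 spike-ins seen in every library, and Benjamini-Hochberg adjustment over all 6564 genes with calls at 0.05. SE is the log2 fold change over the root of F. The common coefficient of variation between replicates was 16.1% by spike-ins and 7.86% with TMM. The fit was also run on simulated data, with few changed genes in both directions and the spike-in factors given. That run could not test the scaling, and its outcome is not reported here. DESeq2 1.42.0, TMM, other scalings, no filter, the 6 libraries alone, a replicate block and leaving out each library were alternatives, the last 2 also with TMM, which was added after seeing the data. Tables and figures were made with Python 3.11.15 and its packages pandas (2.3.3), scipy (1.17.1), numpy (2.4.6) and matplotlib (3.10.9).

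The comparison, the gene lists and the motifs were chosen with earlier results of these data known. Genes named are GCN4, the 10 largest rises and falls among called genes with a symbol, a mean of 10 counts per M and no overlap, the 10 largest gains and losses per kb, and up to 4 members of each list, called with the largest change or otherwise most abundant. STE2, STE3, SAG1, HIS3, LEU2, MET15 and URA3 are label checks. Upstream windows of 500 bases were read from R64 for 5977 genes. Some genes that the naming rule picks and some upstream stretches are not reported here.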

Additional observations from a re-analysis of the deposited data

Results flagged for a closer look

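Reads of genes deleted in the strain appeared in a few libraries with more than 3 counts. LEU2 had a raw count of 6 in the first library with SM, against 70 in the first and 6 in the third library without SM. MET15 had 4 in the first library with SM, against 82 in the first and 4 in the third library without SM. URA3 had 7 in the first library without SM. These are small beside the 40.0 M fragments of that library, and their source was not tested. Groups of 3 were not examined for outlying libraries, and the comparison has 1 contrast, with no other response to set beside it.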

How the results depend on the processing

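Genes called higher numbered 2473 to 4209 over all alternatives, within 1.5 times the 3653 reported. Genes called lower depended on the scaling: 2445 with TMM, 2773 with DESeq2 size factors over yeast genes and 800 with summed spike-in counts, against 497. With only the 6 WT libraries in the fit they numbered 801. Without single libraries they ranged between 322 and 501 with spike-in scaling. The DESeq2 test called 508. The median of all genes was 0.038 with TMM and −0.048 with DESeq2 size factors, and 0.46 to 0.62 without single libraries with spike-in scaling. The difference in yeast counts per unit of spike-in was 3.88 to 7.49 M without single libraries. With a replicate block 3536 genes were higher and 427 lower. Libraries of the same number correlated by −0.14, 0.29 and 0.47 over the 3 pairs, which does not show whether the numbers pair the libraries. Libraries 2 and 3 with SM correlated best with their own number, but library 1 with SM did so with library 2 without SM (0.37).

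Of 245 named values, 230 kept direction and call with TMM, 220 with DESeq2 size factors and 244 with the DESeq2 test. Turned round, with the cause not tested, were GIR2 (−0.056 with TMM, −0.14 with DESeq2 size factors), URA7 (−0.055 and −0.14), TIF35 (−0.092 and −0.18), and with DESeq2 size factors alone GCN2 (−0.012), AAT2 (−0.078) and RGT2 (−0.0045). Without single libraries and with spike-in scaling, 4 to 10 of the 245 named values lost their call and 0 turned round.

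Combining TMM with the block and with leaving out single libraries was chosen after seeing the data. TMM with the replicate block called 2679 genes higher and 2402 lower, and GIR2 (−0.056), URA7 (−0.054) and TIF35 (−0.093) turned round there too. TMM without single libraries called 2477 to 2607 higher and 2328 to 2554 lower, with a median of all genes of −0.0087 to 0.039. Values turned round in 1 or more of those 6 fits for 10 named genes, with the cause not tested. The lowest with TMM and the highest with spike-in scaling were −0.11 and 0.51 for GIR2, −0.16 and 0.51 for URA7, −0.21 and 0.45 for TIF35, −0.12 and 0.53 for AAT2, −0.037 and 0.73 for GCN2, −0.028 and 0.64 for HXT1, −0.030 and 0.89 for ADH4, −0.028 and 0.72 for ZRT1, −0.010 and 0.62 for MFA2, and −0.013 and 0.62 for HOR7. Depth limits genes of a few fragments, such as SPS2 and VBA3, whose folds are imprecise.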
